A study of Mus musculus with 4 samples.

Results

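The typical beta cells of wild type mouse islets were 6557 of the 11792 wild type cells, and of 18612 cells in all 4 libraries. They were chosen by the counts of 6 genes in each cell. Ins1 and Ins2 together held at least 10% of the cell's unique molecular identifiers (UMIs, each marking 1 captured RNA molecule), Gcg and Sst each held under 1%, at least 1 Mafa UMI was read, and Pyy stayed under a limit that passed between members with 327 and 323 UMIs and cells outside with 339 and 334. Library 1 gave 3273 such cells and library 2 gave 3284. They made up 87.9% (exact 95% interval 86.8 to 88.9) and 89.2% (88.1 to 90.2, counting error only) of the cells that passed the insulin, Gcg and Sst conditions. The remainder were 332 and 286 cells with no Mafa UMI, called Mafa-negative here, and 120 and 113 cells above the Pyy limit, called Pyy-rich.

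The islets came from C57BL/6 mice and were read cell by cell with a 10x Genomics kit that captures 3′ ends, in a study asking whether ERAD (degradation linked to the endoplasmic reticulum, ER) by Sel1L and Hrd1 is needed for beta cell identity and function. Both wild type libraries came from mice with floxed Sel1L and no Cre, and both knockout libraries from mice in which Cre driven by Ins1 removes Sel1L in beta cells. A control carrying Cre with Sel1L left whole is not among the samples, so a change between genotypes cannot be told apart from one made by Cre. Ages are 7 weeks in the sample labels and 5 weeks in the series text, and the islets were cultured overnight before dissociation. The labels do not say that the libraries of a genotype are from separate animals, so p-values measure only the spread between libraries, which may be technical.

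Beta cells are the islet cells that make insulin. Glucose enters them through the transporter GLUT2, its metabolism closes potassium channels, calcium flows in, and granules that hold insulin with zinc and islet amyloid polypeptide fuse with the membrane. Hormones from alpha cells (glucagon), from delta cells (somatostatin), from the gut and from nerves adjust this release through receptors on the beta cell. MAFA, PDX1 and NKX6-1 are transcription factors of mature beta cells, and urocortin 3, the product of Ucn3, marks their maturity in mice.

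The 4 libraries held 99156230 to 228515309 UMIs in 2483 to 5951 cells. Typical beta cells had a median of 47866 and 50624 UMIs and 4109 and 4159 genes in libraries 1 and 2, the order in which every pair of values is given here. Alpha cells (Gcg at least 3%, insulin under 5%, 1126 and 949 cells) had a median of 17704 and 18848 UMIs, and delta cells (Sst at least 3%, insulin under 5%, 462 and 538 cells) had 11484 and 12545. After each cell was thinned to 3000 UMIs outside the 6 genes, the median number of genes was 1456 and 1431 in typical beta cells, 1430 and 1459 in alpha cells and 1424 and 1454 in delta cells. At equal depth the classes thus overlapped in gene number. The wild type libraries shared 9 cell barcodes, of which 3 were typical beta cells in both.

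Insulin filled these cells. Ins1 (chr19:52264297-52265476, plus strand, GRCm38) and Ins2 (chr7:142678656-142743381, minus strand) together held a median of 68.5 and 68.9% of a cell's UMIs, with a 5th percentile of 55.1 and 59.96% and a 95th of 74.7 and 74.98%. A mean of 9910.5 and 10084 Ins1 UMIs and 23803 and 26553 Ins2 UMIs was read per cell. Alpha cells had 25.3 and 28.6 Ins1 UMIs, delta cells 23.9 and 25.2 and non-endocrine cells, which make no insulin, 16.8 and 17.7. Mafa (chr15:75745490-75748228, minus strand) was read at a median of 9 and 8 UMIs per typical cell, against a mean of 0.0426 and 0.0432 in alpha and 0.0336 and 0.0434 in non-endocrine cells. Insulin and Mafa reads in alpha cells thus stood within an order of magnitude of those in cells that lack both genes. These genes chose the cells, so their values are a description with no test.

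**Figure D1:**
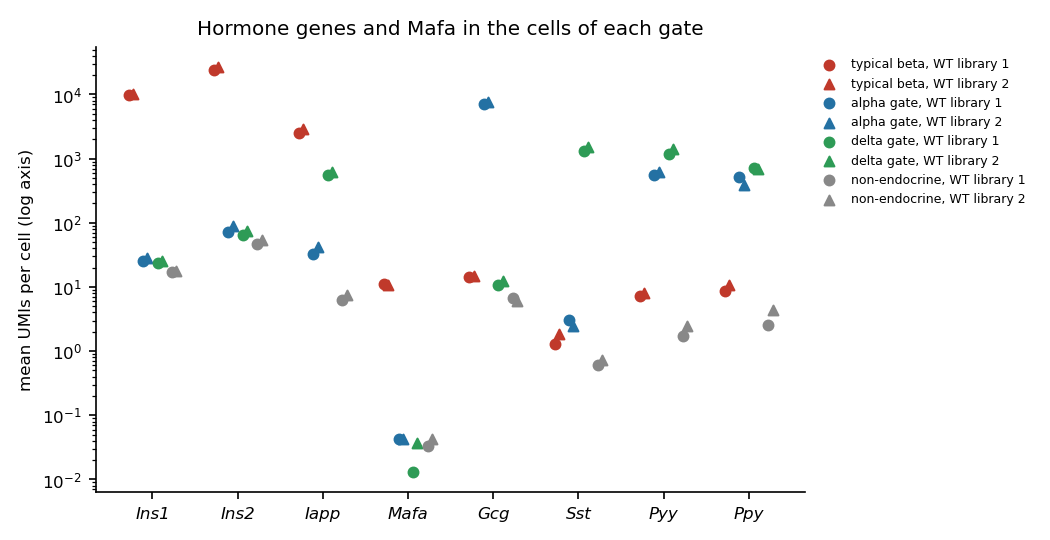
Mean UMIs per cell (log axis) of hormone genes and Mafa in typical beta, alpha-gated, delta-gated and non-endocrine cells of wild type library 1 (circles) and library 2 (triangles). Mafa lies at 10.9 and 10.6 UMIs in typical beta cells and Iapp at 2542 and 2919.9, against 549 and 623 Iapp UMIs in delta cells.

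The insulin limit fell in a gap and the Mafa limit did not. The member with least insulin held 20.8 and 30.7%, and the nearest cell that failed on insulin alone held 8.597 and 7.58%. By contrast 276 and 300 members had exactly 1 Mafa UMI. Cells without a Mafa UMI were commonest among shallow cells, at 35.6 and 50% of cells below 20000 UMIs and 2.48 and 2.21% of cells at or above 60000.

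Macrophage and endothelial markers were low. The 7 macrophage markers summed to a mean of 1.71 and 1.79 UMIs per typical beta cell and the 7 endothelial markers to 0.493 and 0.497, against 52.1 and 53.6 (macrophage) and 52.7 and 59.98 (endothelial) in non-endocrine cells. The non-endocrine cells were chosen by low islet hormones and at least 10 summed UMIs of endothelial, macrophage, stromal and Schwann markers. Their macrophage and endothelial sums were thus raised by the choice, in which duct markers took no part. At least 10 macrophage marker UMIs were read in 17 and 18 typical cells. Duct markers were not low: the 6 of them summed to 22.2 and 23.7 UMIs per typical cell against 15.3 and 16.97 in non-endocrine cells, and at least 10 were read in 90.99 and 94.2% of typical cells. No doublet caller was run, and the limits on Gcg, Sst and Pyy set aside cells with much of another islet hormone.

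The 3 marker genes that took no part in choosing the cells were all far higher in typical beta cells than in alpha and delta cells. Levels below are CPM, counts per 1000000 UMIs outside the 6 genes, summed over the cells of a class in a library, and log2 changes carry their standard error (SE). Ucn3 (chr13:3940688-3945349, minus strand), whose product makes delta cells release somatostatin, stood at 326 and 283 CPM in beta cells, 1.28 and 1.17 in alpha cells and 1.82 and 1.25 in delta cells. Its log2 change was 7.97 (SE 0.10) against alpha cells (adjusted p = 8.97e-14) and 7.71 (SE 0.12) against delta cells (adjusted p = 9.27e-13). Slc2a2 (chr3:28697903-28731359, plus strand), the gene of GLUT2, stood at 309 and 319 CPM against 2.64 and 2.06 in alpha and 3.18 and 3.22 in delta cells, log2 changes of 7.07 (SE 0.10) and 6.68 (SE 0.12). G6pc2 (chr2:69211073-69227841, plus strand), an islet glucose-6-phosphatase that lowers the rate of glycolysis, stood at 813 and 725 CPM against 14.01 and 10.9 in alpha and 7.72 and 7.699 in delta cells, log2 changes of 5.96 (SE 0.07) and 6.69 (SE 0.09). For each gene both beta sums lay above the 4 others. At 3000 UMIs a cell, Ucn3 was read in 57.4 and 51.98% of typical beta cells (90.99 and 90.99% unthinned), 0.358 and 0.5297% of alpha cells and 0 and 0.311% of non-endocrine cells.

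Because the 3 genes moved together, the 250 bases before each start site are shown, from RefSeq with build GRCm38.p6, 5′ to 3′ along the gene. Capitals mark matches on either strand to an E-box (CANNTG, the kind of site NEUROD1 binds), to the homeodomain core TAAT (PDX1 and NKX6-1 are homeodomain proteins) and to the MAF half-site TGCTGA. The windows are chr13:3945350-3945599 (minus strand) for Ucn3, chr3:28697653-28697902 (plus strand) for Slc2a2 and chr2:69210823-69211072 (plus strand) for G6pc2.
Ucn3: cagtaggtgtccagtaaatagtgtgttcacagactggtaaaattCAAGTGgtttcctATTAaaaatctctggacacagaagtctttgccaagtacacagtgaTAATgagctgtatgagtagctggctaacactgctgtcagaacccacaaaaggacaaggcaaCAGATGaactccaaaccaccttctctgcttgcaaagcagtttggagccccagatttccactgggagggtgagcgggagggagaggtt
Slc2a2: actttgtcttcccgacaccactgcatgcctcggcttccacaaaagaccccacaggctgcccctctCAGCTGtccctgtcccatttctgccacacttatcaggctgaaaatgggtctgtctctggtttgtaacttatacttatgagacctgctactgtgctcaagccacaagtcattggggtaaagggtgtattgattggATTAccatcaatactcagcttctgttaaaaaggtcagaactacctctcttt
G6pc2: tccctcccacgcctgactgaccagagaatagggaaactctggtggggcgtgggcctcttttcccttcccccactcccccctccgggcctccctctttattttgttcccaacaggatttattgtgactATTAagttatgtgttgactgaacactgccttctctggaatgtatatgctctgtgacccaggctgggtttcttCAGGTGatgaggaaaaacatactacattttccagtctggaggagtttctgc

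The Ucn3 window held 2 E-boxes and 2 TAAT cores, and the Slc2a2 and G6pc2 windows held 1 of each. None held TGCTGA. Of 32851 mouse windows of this length, 66.2% held an E-box, 54.9% a TAAT core and 16.1% TGCTGA. A match describes letters, not binding.

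Across the 13615 genes tested, 4395 were higher in typical beta than in alpha cells (32.3%) and 4234 lower (31.1%), at an adjusted p under 0.05. Against delta cells 4005 were higher (29.4%) and 3601 lower (26.4%). Higher than in both were 2751 genes (20.2%), and lower than in both 2222 (16.3%). The change was at least 2-fold in both for 831 higher (6.1%) and 769 lower genes (5.65%). The median log2 change of all genes was 0.02 against delta and under 0.01 in size against alpha cells. Both comparisons share the beta sums. With only cells of at least 20000 UMIs, which left 30 and 47 delta cells, the calls against delta cells fell from 7606 to 3749.

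**Figure D2:**
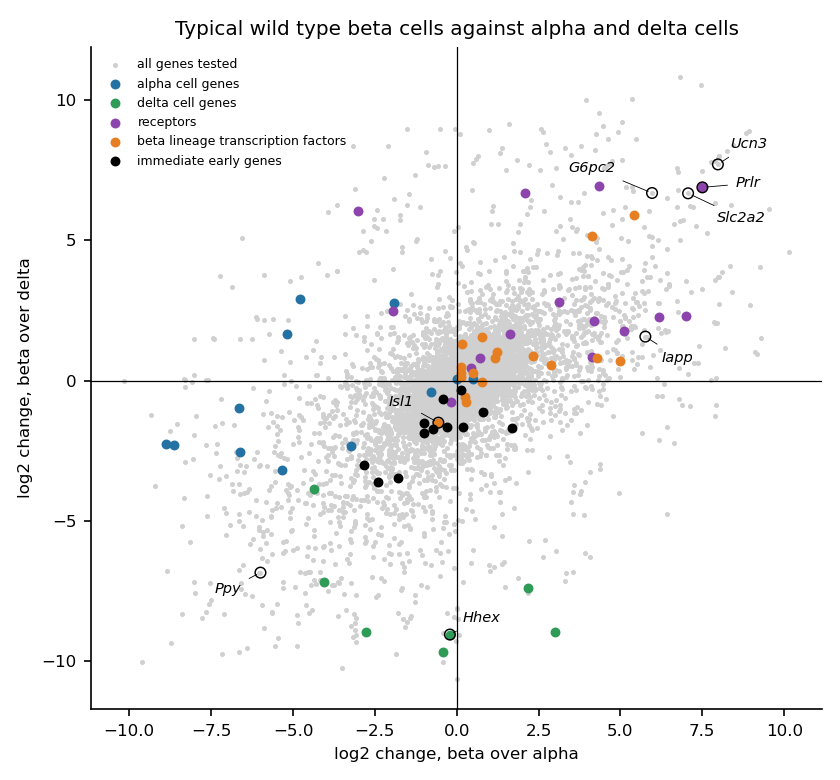
Each point is 1 of the 13615 genes tested, placed by its log2 change in typical beta over alpha cells (horizontal) and over delta cells (vertical), with members of 5 gene lists coloured. Ucn3 lies at 7.97 and 7.71, Ppy at -6.00 and -6.84, and the delta cell gene Hhex at -0.21 and -9.05.

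The 15 genes most raised over both classes included the 3 markers and genes of known beta cell function. Prlr, the prolactin receptor through which beta cells expand in pregnancy, stood at 519.6 and 506 CPM against 2.71 and 3.05 in alpha and 4.54 and 4.48 in delta cells, log2 changes of 7.50 (SE 0.08) and 6.89 (SE 0.09). Trpm5, a calcium-activated cation channel, stood at 96.99 and 82.99 CPM against 0.602 and 0.269 in alpha and 2.95 and 1.97 in delta cells. Sytl4, whose product granuphilin docks insulin granules, stood at 197 and 199 CPM against 1.58 and 2.24 in alpha and 2.499 and 3.04 in delta cells. These 3 genes cover growth, excitability and granule docking. Gad1, which makes the transmitter GABA, stood at 65.5 and 61.5 CPM against 1.58 and 1.53 in alpha and 0.681 and 0.537 in delta cells. Bace2, a protease of the beta cell surface, stood at 629.6 and 682 CPM against 9.56 and 11.9 in alpha and 17.9 and 21.5 in delta cells. The other 7 were Msln, Tmem215, Cox6a2, Prss53, Gpr158, Fam151a and Pde5a, whose smaller log2 change ran from 5.03 (Pde5a) to 6.77 (Msln). Msln, at 188 and 81.6 CPM, and Cox6a2, a subunit of cytochrome oxidase, at 70.1 and 135 CPM, differed between the wild type libraries by more than 1.5 times.

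Of the 10 genes most reduced below both classes, Sgce, an imprinted sarcoglycan, stood at 0.3299 and 0.255 CPM against 55.7 and 57.7 in alpha and 74.96 and 77.5 in delta cells, log2 changes of -7.55 (SE 0.12) and -7.95 (SE 0.13). Sgce was so low in beta cells that it passed the filter on low counts through the other classes. The direction of its change was thus set in advance. Ppy, the hormone of PP cells, stood at 543 and 631 CPM. It stood at 43470 and 33440 CPM in the alpha gate and 75600 and 65720 in the delta gate. No gate limited Ppy itself, but the typical rule limited Pyy and the alpha and delta gates did not. The cells set aside by the Pyy limit held a mean of 1767 and 2074 Ppy UMIs, against 8.55 and 10.5 in typical cells. The place of Ppy among these genes is thus not independent of the rule. The median alpha-gated cell had 23 and 15 Ppy UMIs beside a mean of 513 and 393, so the cells below the median carried little of it. Arg1, an arginase, stood at 3.71 and 2.39 CPM against 81.4 and 71.1 in alpha and 619.5 and 578 in delta cells. Gpx3, a secreted glutathione peroxidase, stood at 27.1 and 19.2 CPM against 1169 and 1144 in alpha and 599.5 and 566 in delta cells, and Rbp4, the retinol carrier, at 124 and 45.8 against 1259 and 1397 in alpha and 12720 and 11570 in delta cells. Basp1, Smarca1, Id1, Etv1 and Calb1 were the other members, with the change nearest 0 at -3.64 (Calb1 against delta cells).

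**Figure D3:**
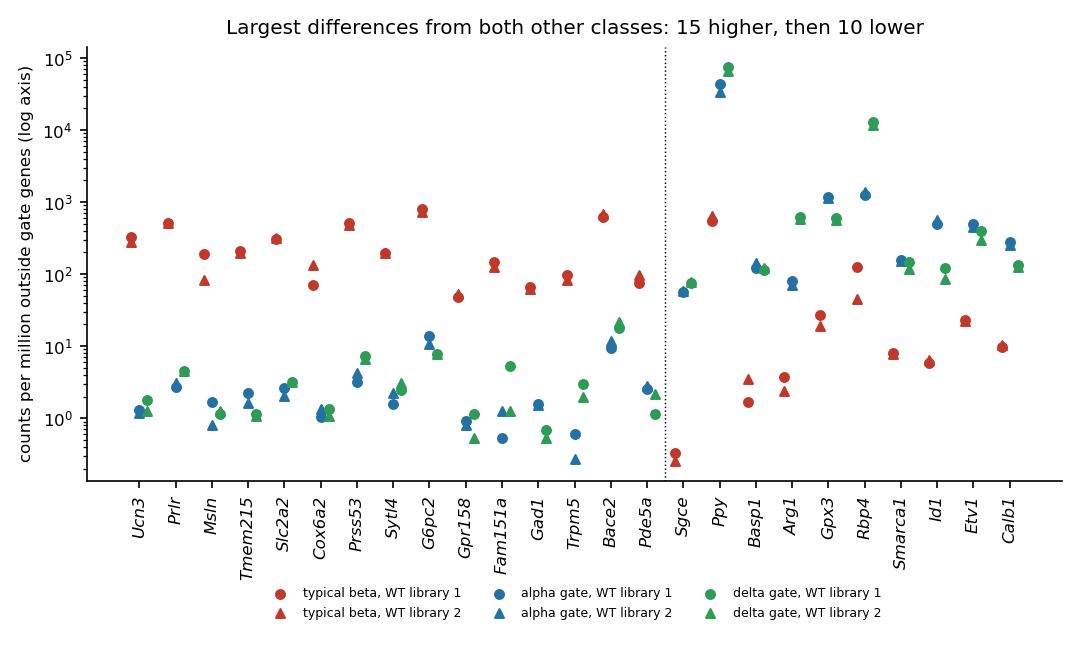
CPM (log axis) of the 15 genes most raised and then the 10 most reduced in typical beta cells relative to both other classes, in beta, alpha-gated and delta-gated sums of wild type library 1 (circles) and library 2 (triangles). For each gene both beta sums lie on 1 side of the 4 other sums, which the choice of these genes required.

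Transcription factors of the beta lineage were mostly higher. Of 18, 11 were higher than in both classes, against 20.2% of all genes, and 1 was lower; the list's median log2 change was 0.77 against alpha and 0.63 against delta cells. Nkx6-1 stood at 398 and 394 CPM against 21.9 and 23.7 in alpha and 11.8 and 11.5 in delta cells. Mnx1 stood at 29.3 and 29.3 CPM against 0.904 and 0.449 in alpha and 0.454 and 0.537 in delta cells. Mnx1 was so low in the other classes that it passed the filter on low counts only with the beta sums. Its direction was thus set in advance. Nkx6-1 set beta cells apart from either neighbour. Pdx1, at 186 and 185 CPM, set beta cells apart from alpha cells (6.63 and 5.21) far more than from delta cells (124 and 114). Insm1 and Nkx2-2, shared by endocrine cells, had log2 changes of 2.32 (SE 0.05) and 0.76 (SE 0.06) against alpha cells and 0.88 (SE 0.05) and 1.55 (SE 0.07) against delta cells. Isl1, needed by all islet lineages, was the lower member, at 268 and 231 CPM against 371 and 377 in alpha and 788 and 678 in delta cells.

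Genes of glucose handling were mostly higher. Of 11 genes measured, 7 were higher than in both classes and 1 lower, against 20.2% and 16.3% of all genes. The medians were 0.97 and 1.25. Besides Slc2a2 and G6pc2 the higher genes were Pcx, Hadh, Ppp1r1a, Mdh1 and Got1. Pcx, pyruvate carboxylase, stood at 84.7 and 82.4 CPM against 10.8 and 9.51 in alpha and 3.86 and 3.94 in delta cells, and Ppp1r1a, a phosphatase inhibitor, at 665 and 656 against 16.4 and 15.5 in alpha and 89.7 and 87.5 in delta cells. Glud1, glutamate dehydrogenase, was the lower member, at 85.8 and 81.3 CPM against 239 and 237 in alpha and 122 and 118 in delta cells. Gpd2 was lower than in alpha and higher than in delta cells (-0.33 and 2.32), and Slc25a22 was called in neither comparison.

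Genes of electrical activity split. Of 15, 6 were higher than in both classes and 4 lower, against 20.2% and 16.3% of all genes, with medians of 0.15 and -0.25. Kcnk3, a leak potassium channel, stood at 0.737 and 0.583 CPM against 92.8 and 94.2 in alpha and 17.3 and 15.04 in delta cells. It was so low in beta cells that it passed the filter on low counts through the other classes. Its direction was thus set in advance. Scn3a, a sodium channel, stood at 16.1 and 15.2 CPM against 43.9 and 44.1 in alpha and 96.8 and 88.5 in delta cells. Genes of the ATP-sensitive potassium channel were not among those higher than in both classes: Kcnj11, its pore, had log2 changes of -0.08, SE 0.08, adjusted p = 0.4203 against alpha cells and -0.25, SE 0.09, adjusted p = 0.0428 against delta cells, and Abcc8, its regulatory subunit, was higher than in alpha cells (0.15, SE 0.04) and lower than in delta cells (-0.39, SE 0.05).

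Receptors were one-sided. Of 15 tested, 12 were higher than in both classes and 0 lower, against 20.2% and 16.3% of all genes. The medians were 3.13 against alpha and 2.26 against delta cells. Igf1r, a growth factor receptor, stood at 420.1 and 345 CPM against 21.2 and 21.5 in alpha and 96.5 and 86.3 in delta cells. Adra2a, through which adrenaline stops insulin release, stood at 84.1 and 70.7 CPM against 0.377 and 0.897 in alpha and 15.4 and 16.8 in delta cells. Both separated beta cells from alpha cells more than from delta cells, and Ffar1, a fatty acid receptor, did the reverse, at 96.9 and 82.6 CPM against 21.7 and 21 in alpha and 0.681 and 1.07 in delta cells. The incretin receptor genes Glp1r and Gipr and the glucagon receptor gene Gcgr were higher than in both. Glp1r stood at 6.695 and 7.59 CPM against 0.226 and 0.179 in alpha and 2.04 and 2.33 in delta cells, and Gcgr at 22.2 and 19.3 against 0.301 and 0.269 in alpha and 3.86 and 5.01 in delta cells. Gpr119, a lipid receptor, was lower than in alpha cells, at 14.1 and 9.96 CPM against 41.7 and 52.9.

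Granule genes were shared in part. Of 18, 7 were higher than in both classes and 2 (Pam and Resp18) lower, against 20.2% and 16.3% of all genes. The medians were 0.49 and 0.55. Iapp stood at 161500 and 174600 CPM against 2771 and 3581 in alpha and 57650 and 60020 in delta cells. Pcsk1, the convertase that starts proinsulin cleavage, stood at 371 and 346 CPM against 2.64 and 3.14 in alpha and 30.2 and 33.8 in delta cells. The granin gene Chga was higher than in both by 1.57 (SE 0.07) and 1.87 (SE 0.07) on the log2 scale, whereas Chgb was higher than in alpha cells (1.09, SE 0.05) and lower than in delta cells (-1.82, SE 0.05). Slc30a8, the granule zinc transporter, stood at 618 and 703 CPM against 698 and 739 in alpha cells (log2 change -0.10, SE 0.06, adjusted p = 0.185) and 19.5 and 14.9 in delta cells. Of 14 exocytosis genes, 11 were higher than in both and 2 (Stx1a and Rims2) lower, with medians of 0.42 and 0.58. The synaptotagmin genes Syt13 and Syt4 were higher by 1.22 (SE 0.06) and 2.05 (SE 0.09) against alpha cells and by 1.36 (SE 0.06) and 1.95 (SE 0.11) against delta cells.

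Several ERAD genes, the subject of the study, were higher in these cells than in their neighbours. Of 12, 5 were higher than in both classes (Sel1l, Derl1, Derl2, Edem1 and Edem3) and 0 lower, against 20.2% and 16.3% of all genes. The list's medians were 1.06 against alpha and 0.51 against delta cells. Sel1l, the adaptor of the ligase HRD1, stood at 108 and 104 CPM against 29.3 and 33.2 in alpha and 44.8 and 38.9 in delta cells, log2 changes of 1.79 (SE 0.07) and 1.41 (SE 0.08). Edem1, which hands misfolded glycoproteins to ERAD, stood at 50.6 and 53.2 CPM against 6.702 and 6.64 in alpha and 14.5 and 13.6 in delta cells. Derl1 and Derl2, channel components, were higher by 1.54 (SE 0.06) and 1.26 (SE 0.06) against alpha cells. Syvn1, the gene of HRD1, stood at 22.7 and 22.6 CPM, higher than in alpha cells (0.31, SE 0.08), and was not called against delta cells (0.24, SE 0.10, adjusted p = 0.0541). The other 6 members were called in at most 1 comparison or in opposite directions.

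Folding genes depended on the neighbour. Of 17, 12 were higher and 0 lower against alpha cells (median 0.42), and 7 were higher and 7 lower against delta cells (median 0.14). Of all genes, 32.3% were higher and 31.1% lower against alpha cells, and 29.4% and 26.4% against delta cells. Ero1lb, an ER oxidase of beta cells, stood at 521 and 624 CPM against 32.98 and 40.3 in alpha and 14.99 and 17.9 in delta cells. The chaperone gene Hspa5 lay between the neighbours, at 596 and 667 CPM against 516 and 604 in alpha and 906 and 996 in delta cells, log2 changes of 0.20 (SE 0.05) and -0.53 (SE 0.05). Of 15 translocation genes, 2 (Sec61a1 and Spcs3) were higher than in both classes and 2 (Sec61g and Ssr2) lower. The shares of all genes were 20.2% and 16.3%, so this list did not exceed them. Among cells of at least 20000 UMIs Sec61a1 lost both calls and Sec61g its call against delta cells.

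Stress effectors were mostly higher. Of 11, 7 were higher than in both classes (Ern1, Atf6, Atf4, Ddit3, Trib3, Chac1 and Asns) and 2 lower (Atf3 and Ppp1r15a), with medians of 0.67 and 0.60. The shares of all genes were 20.2% and 16.3%. Trib3, a kinase-like target of ATF4 and CHOP, stood at 79.4 and 79.9 CPM against 2.26 and 2.51 in alpha and 20.2 and 22.9 in delta cells, and Ddit3, the gene of CHOP, at 127 and 136 against 45.9 and 43.97 in alpha and 65.4 and 68.04 in delta cells. Atf3, an early response gene, stood at 8.54 and 11.2 CPM against 25.3 and 27.1 in alpha and 229 and 278 in delta cells. Immediate early genes were low as well. Of 12, 8 were lower than in both classes and 0 higher, against 16.3% of all genes lower. Against delta cells all 12 were lower (median -1.67), beside 26.4% of all genes. Jun stood at 72.03 and 100.2 CPM against 423 and 491 in alpha and 949.6 and 1222 in delta cells, and Zfp36 at 21.6 and 21.6 against 161 and 154 in alpha and 172 and 187 in delta cells. Dissociation can induce these genes, and its part in the difference was not tested.

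Genes of the neighbouring lineages were low. Of 12 alpha cell genes, 10 were lower than in alpha cells and 1 (Dpp4) higher. Ttr, a thyroxine carrier, stood at 673 and 723 CPM against 18020 and 20990 in alpha cells. Of 9 delta cell genes 7 were tested, and all 7 were lower than in delta cells, beside 26.4% of all genes. The lineage factor Hhex stood at 0.388 and 0.856 CPM against 339.6 and 359. Of 15 tested genes that beta cells usually keep off, 10 were lower and 2 higher (Tgm2 and Cat) than in alpha cells, and 4 were lower than in both classes (Ldha, Oat, Acot7 and Ndrg2). Of all genes, 31.1% were lower and 32.3% higher than in alpha cells, and 16.3% were lower than in both. Hk1, a low-Km hexokinase, stood at 0.407 and 0.2003 CPM against 13.9 and 16.6 in alpha cells, and Oat, ornithine aminotransferase, at 2.89 and 1.77 against 49.2 and 57.5. Genes as low in beta cells as Hhex and Hk1 passed the filter on low counts through the other classes, so their direction was set in advance. Ldha, lactate dehydrogenase, stood at 1.34 and 1.53 CPM against 6.55 and 1.71 in alpha and 5.91 and 12.7 in delta cells.

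**Figure D4:**
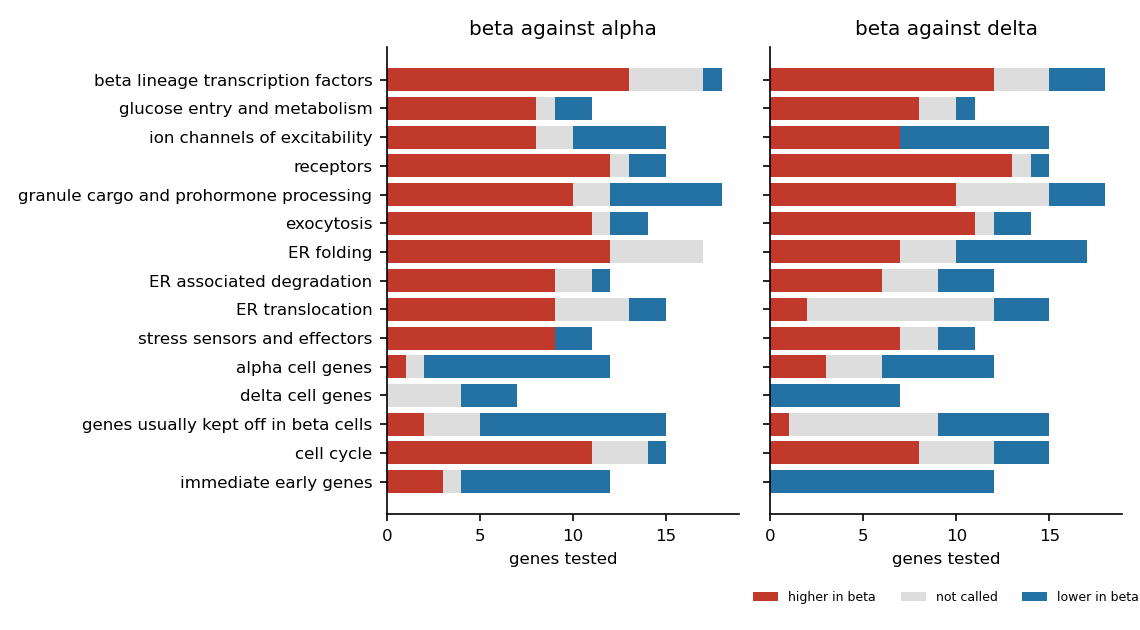
Number of genes tested in 15 gene lists that were higher, lower or not called in typical beta cells against alpha cells (left) and delta cells (right). Receptors show 12 and 13 of 15 higher, and immediate early genes 8 and 12 of 12 lower. Of all genes tested, 32.3 and 29.4% were higher and 31.1 and 26.4% lower.

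Genes of cycling cells were read more in typical beta cells than in their neighbours. Of 15 cell cycle genes, 8 were higher than in both classes and 1 (Mcm6) lower, against 20.2% and 16.3% of all genes. Ube2c, which drives exit from mitosis, stood at 46.2 and 37.6 CPM against 0.904 and 0.269 in alpha and 13.9 and 0.537 in delta cells, and Cdk1 at 16.6 and 14.3 against 0.226 and 0.449 in alpha and 4.54 and 0.895 in delta cells. The delta sums of the libraries lay far apart for both genes. At 3000 UMIs a cell, Mki67 was read in 2.11 and 1.55% of typical beta cells and 0.179 and 0.318% of alpha cells. With only cells of at least 20000 UMIs, Ube2c, Cdk1, Ccnb1 and Birc5 had log2 changes of 1.06, 0.77, 0.19 and 0.15 against delta cells and were no longer called.

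Single markers of duct and B cells were higher in typical beta cells than in alpha and delta cells. Krt7, a keratin of duct cells, was read in 98.7 and 98.96% of typical beta cells and stood at 621 and 598 CPM against 258 and 296 in alpha and 359 and 396 in delta cells. Of the 6 duct markers tested, Krt7 and Krt19 were higher than in both classes, Epcam and Muc1 were lower than in both, and Krt18 and Spp1 were not called in one direction in both. Of all genes, 20.2% were higher and 16.3% lower than in both. Cd79a, a chain of the B cell receptor, stood at 32.99 and 27.6 CPM against 1.73 and 1.44 in alpha and 1.59 and 1.61 in delta cells, log2 changes of 4.27 (SE 0.13) and 4.28 (SE 0.18). At 3000 UMIs a cell, Cd79a was read in 8.18 and 6.46% of typical beta cells and 0.627 and 0.5297% of alpha cells; unthinned, its mean was 0.519 and 0.462 UMIs per typical cell.

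Variation among typical beta cells was read from counts thinned to one depth. At 3000 UMIs a cell, 2248 genes had a mean of at least 0.2 UMIs in both libraries, and their median ratio of variance to mean (Fano factor, near 1 for counting noise) was 1.04 in both. Most of these genes have few UMIs a cell at that depth, where small differences between cells are not detectable over counting noise. Only 31 genes (1.38%) exceeded 2 in both libraries. These 31 include mitochondrially encoded genes, among them mt-Atp6 at 5.76 and 7.54; outside the mitochondrial genome the 12 highest were Iapp, Ppy, Crybb3, Malat1, Mt1, Fth1, Chga, Nupr1, Resp18, Nnat, Msln and Hmgb2. Iapp had a Fano factor of 24.02 and 23.8 at a mean of 481 and 521 UMIs. At equal relative spread a Fano factor rises with the mean, so the order favours abundant genes and does not rank relative spread. Ppy had 21.8 and 16.01, with single cells at up to 207 and 164 UMIs. Crybb3, a lens crystallin, had 14.2 and 13.6 and was read in 11.9 and 15.4% of the cells after thinning, against an unthinned mean of 2.38 and 3.18 UMIs per cell. Mt1, a zinc-binding metallothionein, had 10.1 and 9.91 and was read in 64.2 and 62.5%. Thinned to 2000 UMIs, 18 genes exceeded 2.

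Mafa spread from 1 UMI at the 5th percentile to 29 at the 95th in both libraries. To describe what went with it, the 1091 and 1094 cells with most Mafa per UMI in each library were set beside as many with least, a split chosen after the data were seen. Depth was similar, with medians of 46546 and 50188 UMIs in Mafa-high and 47660 and 50160.5 in Mafa-low cells. Mafa-high cells had more Slc2a2 (log2 difference 0.87 and 0.80), Prlr (0.77 and 0.84), Ero1lb (0.93 and 0.77), Nkx6-1 (0.53 and 0.61) and Ucn3 (0.58 and 0.45), while Iapp differed by -0.04 and 0.01. Zc3h3, whose gene lies 6201 bp from Mafa on the same strand of chr15, differed by 1.74 and 1.66. Mafa-low cells had more of the cycling genes Cenpf (-2.37 and -2.77), Ube2c (-2.72 and -2.23) and Mki67 (-2.04 and -1.65), and of Spp1, osteopontin (-2.77 and -2.07). Apart from Iapp, each gene had the same direction in both libraries. Cells of 1 library are not replicates, so these differences have no test.

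Mafa-negative cells, the nearest neighbours, were higher than typical cells for 381 genes (3.36% of 11332 tested) and lower for 378 (3.34%). They were shallower, with a median of 11971 and 13358 UMIs outside the 6 genes against 14877 and 15592. The part of depth in the differences was not tested. The 3 markers were lower: Ucn3 stood at 196 and 146 CPM, Slc2a2 at 167 and 178 and G6pc2 at 519 and 406, log2 changes of -0.84 (SE 0.06), -0.87 (SE 0.05) and -0.74 (SE 0.05). Among genes of at least 50 CPM the largest fall was in Zc3h3, the neighbour of Mafa, at 27.2 and 22.8 CPM against 91.03 and 75.5 in typical cells, followed by Aldh5a1, Cox6a2, Spp1 and Dapl1. Lyz2, Ppy, Gpx3, Apoe and Rbp4 rose most, with Ppy at 3039 and 1646 CPM. Lyz2 and Apoe are strongly expressed by macrophages, and 4 of 5 macrophage markers tested rose, as did 3 of 7 endothelial markers. The macrophage list summed to 1.81 and 1.71 UMIs per Mafa-negative cell against 1.71 and 1.79 in typical cells, with no member at 0. C1qa, the 1 tested marker not called, gave 1.20 and 1.07 UMIs of the typical sum, so the sum mostly follows C1qa. Without cells rich in non-endocrine markers and those with most UMIs, the log2 change of Apoe was -0.10. DESeq2 called 227 genes in this comparison, and a fit with no library block 121, against 759, with Cox6a2, Rbp4 and Spp1 among the lost calls.

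Pyy-rich cells were higher than typical cells for 872 genes (7.7%) and lower for 950 (8.38%). Ppy, a relative of Pyy, stood at 95700 and 104100 CPM. The cells were chosen by Pyy, so the rise of Ppy is not independent of the rule. Calb1, Rbp4, Gpx3 and Id3 rose by 2.85 (Id3) to 3.30 (Calb1) on the log2 scale, and the first 3 are among the genes lowest in typical beta cells relative to alpha and delta cells. Of 9 delta cell genes 3 were tested, and all 3 rose (Hhex, Rbp4 and Etv1). Hhex was so low in typical cells that it passed the filter on low counts through cells where it is higher. Its direction was thus set in advance. Among immediate early genes 10 of 12 rose, while 6 of 13 cell cycle genes fell. The cells held 43.99 and 37.8 Sst UMIs each against 1.27 and 1.87 in typical cells, and 4 of 7 endothelial markers rose, from a sum of 0.493 and 0.497 to 0.958 and 1.13 UMIs per cell. The part of these in the result was not tested. Ucn3 stood at 106 and 104 CPM, Slc2a2 at 128 and 149.7 and G6pc2 at 364 and 302, log2 changes of -1.46 (SE 0.08), -1.10 (SE 0.06) and -1.13 (SE 0.06). Crybb3, Apoe, Gad1, Cox6a2 and Tmigd3 fell most, although without cells rich in non-endocrine markers the change of Apoe was 0.0017. DESeq2 called 830 genes and a fit with no library block 720 (Cox6a2 among the lost calls), against 1822. With scaling by library size alone, 30.2% of the calls were higher in Pyy-rich cells, against 47.9% with TMM scaling.

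**Figure D5:**
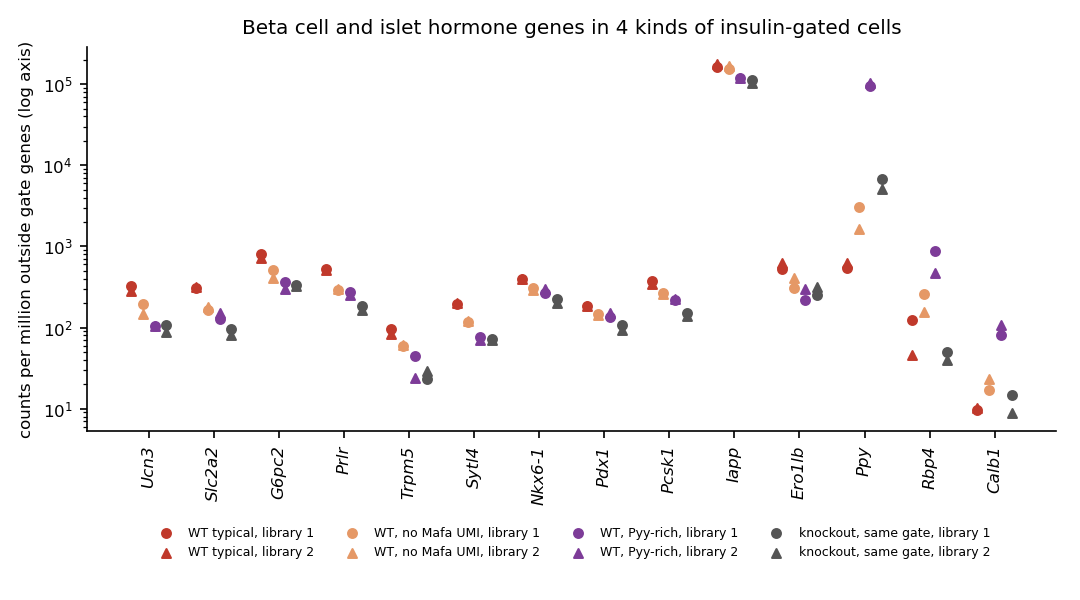
CPM (log axis) of beta cell and islet hormone genes in typical, Mafa-negative and Pyy-rich beta cells of wild type islets and in knockout cells that passed the typical rule, with library 1 as circles and library 2 as triangles. Ucn3, Slc2a2 and G6pc2 are highest in typical wild type cells, and Ppy is highest in the Pyy-rich cells.

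Knockout islets held fewer cells of this kind. The rule was met by 532 and 547 knockout cells, 21.5 and 39.3% of those that passed the insulin, Gcg and Sst conditions; the rule used these genes, so the shares are a description. Sel1l, the deleted gene, stood at 78.6 and 85.03 CPM against 108 and 104 in wild type cells (log2 change -0.48, SE 0.07, adjusted p = 0.00319), and at 2.199 and 2.59 UMIs per cell against 1.69 and 1.75. The counts come from 3′ ends, and whether they cover the deleted exons was not analysed here. Of 14140 genes tested, 2340 were higher in the knockout cells (16.5%) and 2300 lower (16.3%). The knockout cells had a median mitochondrial share of 3.37 and 3.51% of all UMIs, insulin included, against 1.702 and 1.69%. Their median UMIs outside the 6 genes were 26749.5 and 28512 against 14877 and 15592. They held fewer insulin UMIs, with a mean of 3489 and 4323 Ins1 UMIs per cell against 9910.5 and 10084. Ins2 was read at a mean of 20395 and 23621 UMIs against 23803 and 26553. Both genes chose the cells, so these means have no test. The mitochondrial share thus depends in part on insulin, and it was not computed without insulin. The 5 erythroid genes summed to 0.207 and 0.0896 UMIs per cell against 0.0055 and 0.00152, and to 0.106 and 0.0719 in knockout alpha cells. With so few wild type UMIs, the 4 tested passed the filter on low counts only with the knockout libraries. All 4 were called higher, a direction set in advance. The part of these in the result was not tested.

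Knockout cells that passed the typical rule had lower shares of their UMIs in Ucn3, Slc2a2 and G6pc2. Ucn3 stood at 108 and 87.01 CPM against 326 and 283, Slc2a2 at 95.8 and 80.7 against 309 and 319, and G6pc2 at 331 and 325 against 813 and 725. Their log2 changes were -1.75 (SE 0.12), -1.94 (SE 0.10) and -1.33 (SE 0.08). The knockout sums lay below both wild type sums for each. Because knockout cells held more UMIs outside the 6 genes, a fall in CPM need not be a fall per cell. Per cell, Ucn3 had 3.01 and 2.65 UMIs against 5.13 and 4.73, Slc2a2 2.68 and 2.46 against 4.86 and 5.34, and G6pc2 9.26 and 9.93 against 12.8 and 12.1; these means have no test. The largest falls were in Nnat, Dapl1, Plk3, Ppp1r1a and Vps8, with Ppp1r1a at 124 and 106 CPM against 665 and 656. Of 11 glucose genes 8 fell and 0 rose (median -0.41), and of 18 granule genes 12 fell and 0 rose (median -0.65). These are falls as a share of UMIs: per cell, Chga had 265 and 294 UMIs against 164 and 197, and Iapp had 3110 and 3149 against 2542 and 2920, both higher in the knockout libraries. Of 18 transcription factors 3 fell (Pdx1, Nkx6-1 and Nkx2-2) and 2 rose (Rfx6 and Esrrg), shares near those of all genes (16.3% lower and 16.5% higher); Nkx6-1 had 6.25 and 6.18 UMIs per cell against 6.27 and 6.58. Of 12 ERAD genes 10 rose and 1 (Sel1l) fell, and of 17 folding genes 15 rose and 1 (Ero1lb) fell. Areg, Derl3, Ppy, Igfbp5 and Nupr1 rose most. Derl3, an ERAD channel component, stood at 75.01 and 84.97 CPM against 2.31 and 1.91, and Areg, a ligand of the EGF receptor, at 91.2 and 105 against 0.407 and 0.692. With scaling by library size alone the median gene moved by 0.12 on the log2 scale and 66.7% of calls were higher in the knockout, against 50.4% with TMM scaling. Without wild type library 2 the number of calls fell from 4640 to 3081.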

How the data were processed

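Per the submitters' processing notes the authors used Cell Ranger 3.0.0, Seurat 2.3.4 and the mm10 genome. The deposited tables hold UMI counts of 19074 genes per cell, already filtered (lowest cell 501 genes, highest mitochondrial share 9.96%). No further cells were removed and no doublet caller was run. Cells were classed by their own counts, and 4 and 2 wild type cells that met both the alpha and the delta rule were left out.

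UMIs were summed per class and library without Ins1, Ins2, Mafa, Gcg, Sst and Pyy. The sums went into the quasi-likelihood test of edgeR 4.0.16 (R 4.3.3), after filterByExpr and TMM scaling; a gene was called at an adjusted p under 0.05 (Benjamini-Hochberg, over all genes tested). The library was a block between classes of wild type cells, and no block was used between genotypes. The SE is the size of the log2 change divided by the square root of the test's F statistic. Cells were thinned to 3000 UMIs for shares of cells and for Fano factors. Alternatives were other scalings and filters, the 6 genes kept, DESeq2 1.42.0, other gates, deeper cells, cells rich in other markers left out, the block, and each library left out. On simulated data with a log2 change of 1, edgeR recovered 87.5% of 200 changed genes between islet cell classes (13091 genes), 77.5% between kinds of beta cells (11154 genes) and 75% between genotypes (14030 genes). Genes simulated without a change made up 0.568%, 6.06% and 1.96% of the calls, with 6.06%, between kinds of beta cells, above the nominal 5%. The counts were drawn once, with a fixed spread above the common spread estimated in each fit and with no library effect. These percentages therefore need not hold for the data, and 1 draw cannot show an excess over 5%.

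The members and lists were chosen with earlier results of these data known. Named genes are the markers; the 15 higher and 10 lower genes with the largest smaller change among those called against both classes, with at least 50 CPM and no overlap; up to 4 called members of each list, and members of lists of 12 or fewer; the 5 largest changes each way in the other comparisons; and the 12 highest Fano factors. Sex-linked, mitochondrially encoded and predicted genes were not eligible as largest changes or Fano factors. All other genes given with values, among them Pdx1, Isl1, Glp1r, Gcgr, Gpr119, Kcnj11, Abcc8, Iapp, Slc30a8, Hspa5, Hk1, Ldha and Mki67, the genes set against Mafa level, and members named by their direction alone were chosen after their values were seen. Coordinates are from GENCODE vM21 (GRCm38), in which 18826 of 19074 symbols matched.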

Additional observations from a re-analysis of the deposited data

How the results depend on the processing

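All 5 comparisons rest on 2 libraries a group and measure spread between libraries only. Of the 90 genes named against alpha and delta cells, no log2 change in the fits turned sign under any of the alternatives run. Of 1164 values against alpha cells 10 lost their call, and of 1164 against delta cells 27 did. These totals include the fits that left out 1 wild type library, whose values have no test and could not lose a call. Counts of calls kept within 1.5 times of the main value except in these cases. With only cells of at least 20000 UMIs, calls against delta cells fell from 7606 to 3749, with 30 and 47 delta cells left. DESeq2 called 227 genes between Mafa-negative and typical cells and 830 between Pyy-rich and typical cells, against 759 and 1822, and with no replicate block the counts were 121 and 720; the cause was not tested. Leaving out each library, the genotype calls ranged from 3081 to 4248 against 4640. With the replicate number as a block they were 4917; libraries of the same number did not deviate together (r = -0.0167 over 9462 genes), so the numbers were not treated as pairs. Thinned to 2000 UMIs, 18 genes had a Fano factor over 2 against 31. Without cells rich in non-endocrine markers, an alternative chosen after seeing the data, Apoe turned to -0.10 in Mafa-negative cells and to 0.0017 in Pyy-rich cells. The planned form of that alternative, which also used duct markers, was not run, because most typical beta cells carry Krt7. Leaving out 1 wild type library leaves no replicate for classes within a library, so those log2 changes have no test.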

Other observations

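Some genes differed between the wild type libraries of typical beta cells by more than 1.5 times; they were picked after their values were seen and have no test. Nnat, an imprinted gene of the ER membrane, stood at 227 and 79.8 CPM in libraries 1 and 2, and Nupr1, a stress-induced chromatin protein, at 149 and 372. Rbp4 stood at 124 and 45.8 CPM. Nnat and Nupr1 are also among the 12 genes outside the mitochondrial genome named for the highest Fano factors, and both were among the largest changes in knockout cells, where Nnat stood at 6.52 and 8.99 CPM and Nupr1 at 2268 and 2504.

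Of 10 genes of endocrine progenitors and dedifferentiation, 1 (Dcdc2a) was higher in typical beta cells than in both alpha and delta cells and 2 (Hes1 and Cd81) were lower. The shares of all genes were 20.2% and 16.3%. Neurog3, the endocrine progenitor factor, stood at 0.737 and 0.473 CPM in typical beta cells and 88.1 and 75.6 in delta cells. It passed the filter on low counts through delta cells, so its direction against them was set in advance. Against alpha cells Neurog3 was called higher in typical beta cells. In knockout cells that passed the same rule, 6 of 9 tested rose and 2 fell, against 16.5% and 16.3% of all genes. Aldh1a3 stood at 13.4 and 9.71 CPM against 0.136 and 0.619, and passed the filter on low counts only with the knockout libraries.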
